A study of Mus musculus with 4 samples.

Results

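Secreted WNT inhibitors were followed through mouse tail intervertebral discs 7 days after needle puncture. The group held 7 genes, chosen by symbol from the 32285 listed in the count tables: Frzb, Sfrp1, Sfrp2 and Sfrp5 of the secreted frizzled-related proteins, Dkk2 and Dkk3 of the Dickkopf family, and Wif1. All 7 were listed, and all had UMIs (distinct transcript molecules) in cells. Their totals over 3846 cells were 841 for Frzb, 268 for Sfrp1, 214 for Sfrp2, 318 for Sfrp5, 53 for Dkk2, 1046 for Dkk3 and 3724 for Wif1.

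WNT proteins are secreted signals that bind frizzled receptors and LRP co-receptors, and in the canonical branch they stabilise beta-catenin, which enters the nucleus and switches on target genes with TCF/LEF factors. Secreted frizzled-related proteins and Wif1 bind WNT proteins outside the cell. Dickkopf proteins such as Dkk2 act on the LRP co-receptors, while Dkk3 is a divergent member of that family whose part in WNT signalling is less settled. In cartilage, canonical WNT signalling is known to drive chondrocytes toward hypertrophy and matrix loss, and Frzb was first found as a cartilage protein.

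The annulus surrounds the soft nucleus pulposus of a disc and is cartilage-like on its inner side and fibrous on its outer side. The 4 single-cell libraries were 2 control and 2 injured, 1 of each in each of 2 rounds. All came from wild-type female C57BL/6 mice aged 12 weeks. Injured discs were punctured on both sides with a 30G needle, and control discs were unpunctured discs from further down the same tails, so tail level and injury cannot be told apart. Discs of several mice were pooled for each suspension (6 mice and 30 discs per group by the labels, which do not say if this was per round), and no label ties a cell to a mouse. A replicate here is therefore a pooled suspension, and p-values measure the spread between such pools.

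The libraries differed in depth and in how they had been filtered. They held 378 control and 778 injured cells in round 1 and 856 and 1834 in round 2, from total UMIs of 1114210, 8943537, 9891258 and 16972879. Median UMIs per cell were 836 to 1061.5 in control and 4635 to 7033.5 in injured libraries. In round 1, 159 of the 378 control cells had a barcode that was also prominent in the injured library. Of these, 104 had 29.2 to 44.8 times as many UMIs under the same barcode in the injured library. The other 55 had 0.631 to 0.905 times as many there. Which discs such cells came from was not tested. Each result that rests on control round 1 is given with and without these shared barcodes where a call changes. Clustering without the 7 genes gave 17 clusters. Inner annulus markers (18 of 19 detected) summed to 13005 to 18370 CPM in control and 18248 to 19279 in injured libraries, where CPM scales a sum of cells to 1e6 UMIs. Outer annulus or fibroblast markers (18 of 18) summed to 5759 to 6713 against 8069 to 19146. Macrophage or monocyte markers (13 of 13) summed to 109 to 249.9 against 425 to 469.9, and pancreatic acinar markers (8 of 8) to 1053 to 1493 against 3.22 to 22.0. B or plasma cell markers (8 of 8) summed to 723 to 1228 against 3.41 to 106, and osteoblast markers (7 of 7) to 58.8 to 726 against 25.9 to 40.6. Of 12 nucleus pulposus markers, Noto had no UMI, and the list summed to 1505 to 1984 against 664 to 871. Mural cell markers (9 of 9) summed to 205 to 290.1 against 329.9 to 414, and Schwann cell or glia markers (7 of 7) to 151 to 202 against 213 to 255. The part of these differences in the results below was not tested. None of the 7 genes had a UMI in the nucleus pulposus-like cluster and 3 of their UMIs in all lay in the macrophage or monocyte-like one, though the UMIs of both clusters count in the total that scales the CPM over all cells.

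The genes lay on 6 chromosomes of the GRCm38 (mm10) build. By the GENCODE annotation, Frzb spanned chr2:80411970-80447625, Sfrp2 chr3:83766321-83774316 and Dkk2 chr3:132085292-132180304. Dkk3 spanned chr7:112116017-112159057, Sfrp1 chr8:23411502-23449632, Wif1 chr10:121033960-121100650 and Sfrp5 chr19:42197971-42202252. RefSeq promoter sequences of GRCm38.p6 matched 5 of the 7, and Sfrp1 and Dkk3 were not among them. The windows of these 5 count from the RefSeq start site, which for Sfrp2, Sfrp5 and Dkk2 is also the GENCODE start. For Frzb and Wif1 the RefSeq start lies inside the GENCODE gene, so most of the Frzb window is within the gene as given above, and the stretch of Wif1 shown stops before the GENCODE start. Over the 250 bases before the RefSeq start, the number of CG dinucleotides was 16 in Frzb, 16 in Sfrp2, 13 in Sfrp5, 7 in Dkk2 and 21 in Wif1, against a median of 6 over 32851 promoters. Upstream stretches of 3 of them are shown because Sfrp5 and Wif1 had lower levels in injured libraries and Sfrp2 a higher one. Capitals mark CG dinucleotides. The stretch is chr19:42202253-42202502 on the minus strand for Sfrp5, chr10:121033754-121033959 on the plus strand for Wif1, and chr3:83766071-83766320 on the plus strand for Sfrp2.
Sfrp5: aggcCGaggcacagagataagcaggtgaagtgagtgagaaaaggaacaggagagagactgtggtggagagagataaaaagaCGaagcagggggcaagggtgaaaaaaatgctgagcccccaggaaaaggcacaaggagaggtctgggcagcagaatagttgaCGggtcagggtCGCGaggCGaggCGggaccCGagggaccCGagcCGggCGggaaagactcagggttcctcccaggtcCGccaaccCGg
Wif1: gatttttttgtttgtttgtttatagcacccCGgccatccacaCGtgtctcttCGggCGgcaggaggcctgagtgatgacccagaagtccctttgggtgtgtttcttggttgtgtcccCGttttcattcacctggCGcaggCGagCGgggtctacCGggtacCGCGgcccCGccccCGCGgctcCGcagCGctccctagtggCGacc
Sfrp2: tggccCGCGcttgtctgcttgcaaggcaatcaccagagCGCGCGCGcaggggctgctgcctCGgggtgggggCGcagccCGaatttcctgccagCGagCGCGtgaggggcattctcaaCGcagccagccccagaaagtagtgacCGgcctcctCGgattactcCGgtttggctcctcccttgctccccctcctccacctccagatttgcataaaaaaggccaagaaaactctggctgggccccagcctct
The stretches held 13 CG in Sfrp5, 17 in the 206 bases of Wif1 and 16 in Sfrp2. Over the 250 bases before the RefSeq start, 31.5%, 16.3% and 25.4% of promoters held at least as many CG as Sfrp5, Wif1 and Sfrp2, so none of the 3 stood apart by this count. Both strands of the 250 bases were searched for CTTTGA (a TCF/LEF core, held by 13.8% of promoters), CTTTGT (a related form, 16.5%) and TATAAA (12.4%). Counted from the RefSeq start, Frzb held the first on its reverse strand, 95 bases before it and inside the GENCODE gene. Dkk2 held the second 80 bases and the third 32 bases before it, and Wif1 held the third on its reverse strand 232 bases before the RefSeq start, within the stretch shown. Neither Sfrp2 nor Sfrp5 held any of them. A match is a description of letters only.

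The cells that carried these genes fell into an inner annulus and an outer annulus pattern. Frzb, Sfrp5 and Wif1 were highest in a cartilage-like inner annulus cluster led by Grem1, a secreted BMP antagonist, and Cnmd, the anti-angiogenic cartilage protein chondromodulin. Dkk3 was highest in an outer annulus fibroblast-like cluster led by Myoc and Angptl7. Most pooled UMIs of Sfrp1, Sfrp2 and Dkk2 lay in a fibroblast-like cluster led by Aspn and Cthrc1, both known from fibrous matrix and repair tissue, and nearly all of them came from the injured library of round 2. Levels across clusters are descriptions, with no test.

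**Figure D1:**
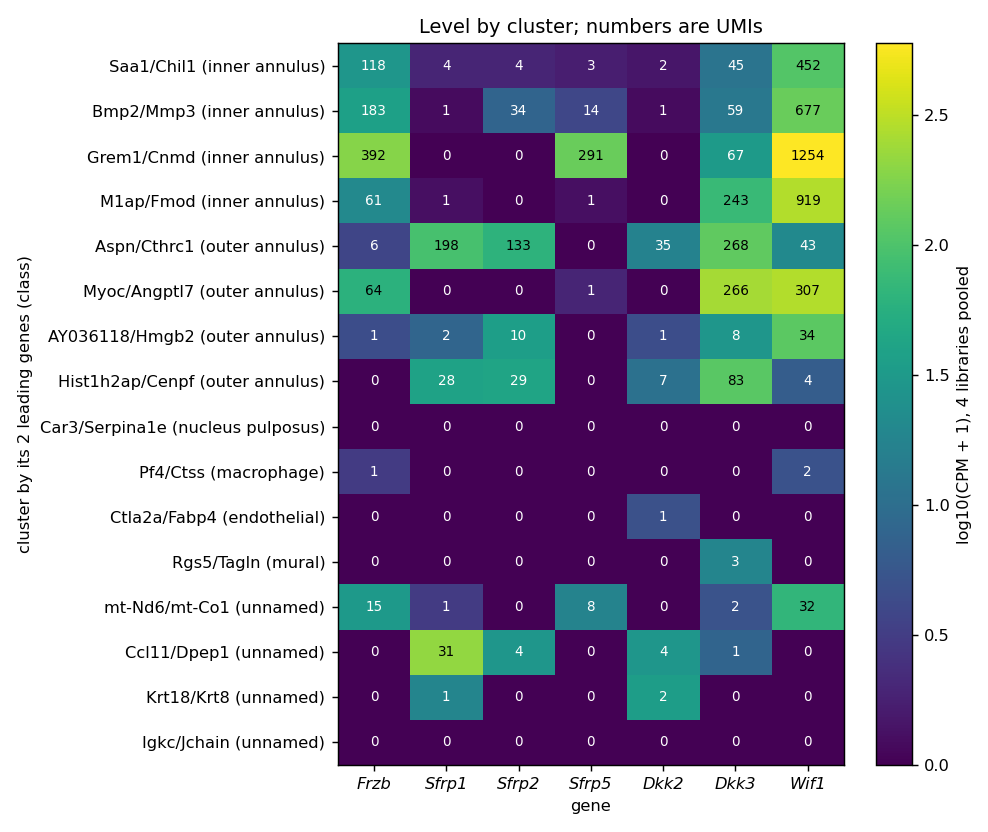
Level of each gene (columns, log10 of CPM plus 1, 4 libraries pooled) in each cluster of at least 20 cells (rows, named by 2 leading genes and class), with the UMIs behind it printed in the tile. Frzb, Sfrp5 and Wif1 are brightest in the Grem1/Cnmd row (392, 291 and 1254 UMIs), Dkk3 in the Myoc/Angptl7 row (266 UMIs), and Sfrp2 in the Aspn/Cthrc1 row (133 UMIs); the bright Sfrp1 tile of the Ccl11/Dpep1 row rests on 31 UMIs.

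Sfrp5, a secreted frizzled-related protein, was the most restricted of the inner annulus genes. The Grem1/Cnmd cluster held 291 of its 318 UMIs (91.5%) but 10.2% of all UMIs. Its level there was 138 CPM ± 62.04 (SD, n = 4 libraries), from 76.8 to 219.7. The next cluster, a low-depth one led by mitochondrial genes, reached 13.8 CPM ± 12.5 (SD, n = 4), and the libraries of the 2 clusters did not overlap. Sfrp5 had no UMI in the 130 macrophage or monocyte-like cells, which at this depth allows up to 2.31% of such cells to hold a detected UMI, and 1 UMI in the 157 cells of the Myoc/Angptl7 cluster.

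Frzb, the frizzled-related protein of cartilage, had 392 of its 841 UMIs in the Grem1/Cnmd cluster. The level was 189.6 CPM ± 54.4 (SD, n = 4) there, from 142 to 265. A cluster led by Bmp2 and Mmp3 followed at 74.5 CPM ± 37.4 (SD, n = 3 libraries with at least 10 cells). No library of it reached the range of the first. Its 3 libraries included control round 1, where most of its 88 cells had shared barcodes, so they are not 3 independent values. The Myoc/Angptl7 cluster had 63.7 CPM ± 14.4 (SD, n = 4), which overlapped the Bmp2/Mmp3 cluster. The inner annulus clusters led by Saa1 and Chil1 (35.3 CPM ± 9.07, SD, n = 3) and by M1ap and Fmod (16.8 CPM ± 11.7, SD, n = 4) were lower and did not overlap each other. The class of the M1ap/Fmod cluster depended on the clustering. With finer clusters its counterpart, 301 cells led by M1ap and Fmod, had most markers from the outer annulus list and took no name. With the 7 genes allowed in the clustering, Fmod and Comp were among the leading genes of an outer annulus cluster of 563 cells led by Myoc and Angptl7.

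Wif1, which binds WNT proteins through its WIF domain, was spread more widely over annulus cells. It reached 571 CPM ± 145 (SD, n = 4) in the Grem1/Cnmd cluster, from 411 to 761. The Myoc/Angptl7 cluster had 265 CPM ± 154 (SD, n = 4), the M1ap/Fmod cluster 198 ± 112 (SD, n = 4), the Saa1/Chil1 cluster 155 ± 93.0 (SD, n = 3) and the Bmp2/Mmp3 cluster 139 ± 66.8 (SD, n = 3). Neighbours in this order overlapped in their libraries. The 3 libraries of the Bmp2/Mmp3 cluster again included control round 1, with mostly shared barcodes. The Aspn/Cthrc1 cluster was lower at 13.7 CPM ± 9.90 (SD, n = 2). Inner annulus or cartilage-like cells as a class held 88.7% of Wif1 UMIs and 70.3% of all UMIs.

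Within the Grem1/Cnmd cluster the overlap of the 3 genes in cells was counted, and no expected overlap was computed. Of its 418 cells, 60 had a UMI of none of the 7 genes, 147 of 1, 142 of 2, 59 of 3 and 10 of 4. Frzb and Wif1 shared 146 cells, Sfrp5 and Wif1 101, Frzb and Sfrp5 59, and all 3 were seen in 55. Wif1 was detected in 69.6% of these cells, Frzb in 43.1% and Sfrp5 in 28.9%, at a median of 4139.5 UMIs per cell. In the macrophage or monocyte-like cells, at a median of 3323 UMIs, the shares were 1.54% for Wif1 and 0.769% for Frzb. Sfrp1, Sfrp2 and Dkk2 had no UMI in the Grem1/Cnmd cluster, which for each allows up to 0.718% of its cells to hold a detected UMI and sets no limit on cells that express the gene.

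Dkk3 followed the fibrous annulus. It reached 231.5 CPM ± 75.9 (SD, n = 4) in the Myoc/Angptl7 cluster, from 151 to 334. The dividing cells led by Hist1h2ap and Cenpf had 119 CPM in the 1 library with at least 10 of them, below that range, and a cluster of pancreatic genes followed with 1 UMI. The Aspn/Cthrc1 cluster had 83.1 CPM ± 69.9 (SD, n = 2) and the M1ap/Fmod cluster 60.5 ± 21.9 (SD, n = 4), which overlapped. The Grem1/Cnmd cluster had 32.7 CPM ± 10.8 (SD, n = 4), and its libraries overlapped those of the cluster before and of the cluster after it. Dkk3 and Wif1 shared 48 of the 157 Myoc/Angptl7 cells.

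Sfrp1, Sfrp2 and Dkk2 were rare, and where their UMIs lay differed between libraries. Pooled, the Aspn/Cthrc1 cluster held 198 of 268 Sfrp1 UMIs (73.9%), 133 of 214 Sfrp2 UMIs (62.1%) and 35 of 53 Dkk2 UMIs (66.0%), with 10.6% of all UMIs. Of its 267 cells, 247 came from the injured library of round 2, 12 from injured round 1, and 5 and 3 from the control libraries. In the injured library of round 2, Sfrp1 had 97.6 CPM there, Sfrp2 67.3 and Dkk2 16.2, and in injured round 1 the values were 33.6, 0 and 13.5 from 12 cells. Of the 42 Sfrp2 UMIs of injured round 1, 34 lay in 4 cells of the Bmp2/Mmp3 inner annulus cluster and 8 in 1 cell of an outer annulus cluster led by AY036118 and Hmgb2. In the inner annulus class Sfrp2 had no UMI in either control library and 5.94 and 0.599 CPM in injured rounds 1 and 2. Of the 23 Sfrp1 UMIs of control round 2, 22 lay in the Ccl11/Dpep1 cluster and 1 in the inner annulus class. The dividing cells of the injured library of round 2 had 40.0 CPM of Sfrp1, 41.5 of Sfrp2 and 10.0 of Dkk2. Per UMI the level of Sfrp1 was highest elsewhere, at 338 CPM ± 139 (SD, n = 3) in an unnamed cluster led by Ccl11 and Dpep1, above the range of the Aspn/Cthrc1 cluster. That value rests on 31 UMIs in cells with a median of 385.5 UMIs, and all 17 control round 1 cells there were shared barcodes. For Sfrp2 the Aspn/Cthrc1 cluster (33.6 CPM ± 47.6, SD, n = 2) overlapped its neighbours in the order. For Dkk2 it had 14.8 CPM ± 1.93 (SD, n = 2), and the 2 clusters above it rest on 2 and 4 UMIs.

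Each of the genes with at least 100 UMIs had clusters' levels that ran closely with those of other genes. Over 16 clusters and 9930 genes, on log2 of CPM plus 10, the highest Pearson correlations were with Alpl (r = 0.978), Tnr and Gpld1 for Sfrp5. They were with Stk32b (r = 0.966), Grem1 and Apobec2 for Frzb, and with Kcnq5 (r = 0.991), Slurp1 and Chad for Wif1. For Dkk3 they were Thbs2 (r = 0.947), Tnmd and Col8a1. For Sfrp1 they were Dpt (r = 0.970), Col14a1 and Vegfd, and for Sfrp2 Fbn2 (r = 0.932), Fam171b and Dclk1. The order of these genes depended on the setting. At resolution 2 (24 clusters) the first was still Stk32b for Frzb (r = 0.919) and Thbs2 for Dkk3 (r = 0.937), but it was Gpr153 for Sfrp1, Igdcc4 for Sfrp2, Tnr for Sfrp5 and Fibin for Wif1, and with a pseudocount of 1 it was Cpxm1 for Sfrp1. The clusters share libraries and depth, so these values are descriptions.

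The first comparison set injured against control libraries over all cells, including the unnamed clusters. In round 2 the Ccl11/Dpep1 cluster held 268 of 856 control and 7 of 1834 injured cells. The Krt18/Krt8 cluster held 63 and 12 of them, and the Igkc/Jchain cluster, with B or plasma cell genes, 37 and 7. The Ctrb1/Try5 cluster of pancreatic genes held 11 and 0. Their part in the values was not tested. Sfrp5 fell, and the levels of Frzb and Wif1 were lower in both rounds. Sfrp2 was higher in both rounds at a low level. Dkk3, Sfrp1 and Dkk2 had overlapping groups. Of 11990 genes tested by edgeR's quasi-likelihood test, 14 (0.117%) were called at an adjusted p under 0.05 without the round as a block, and 753 (6.28%) with it. Control and injured discs of a round came from the same mice, and both fits are therefore given where they differ. Of the 7 genes 6 were tested, and Dkk2 did not pass the filter on low counts.

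**Figure D2:**
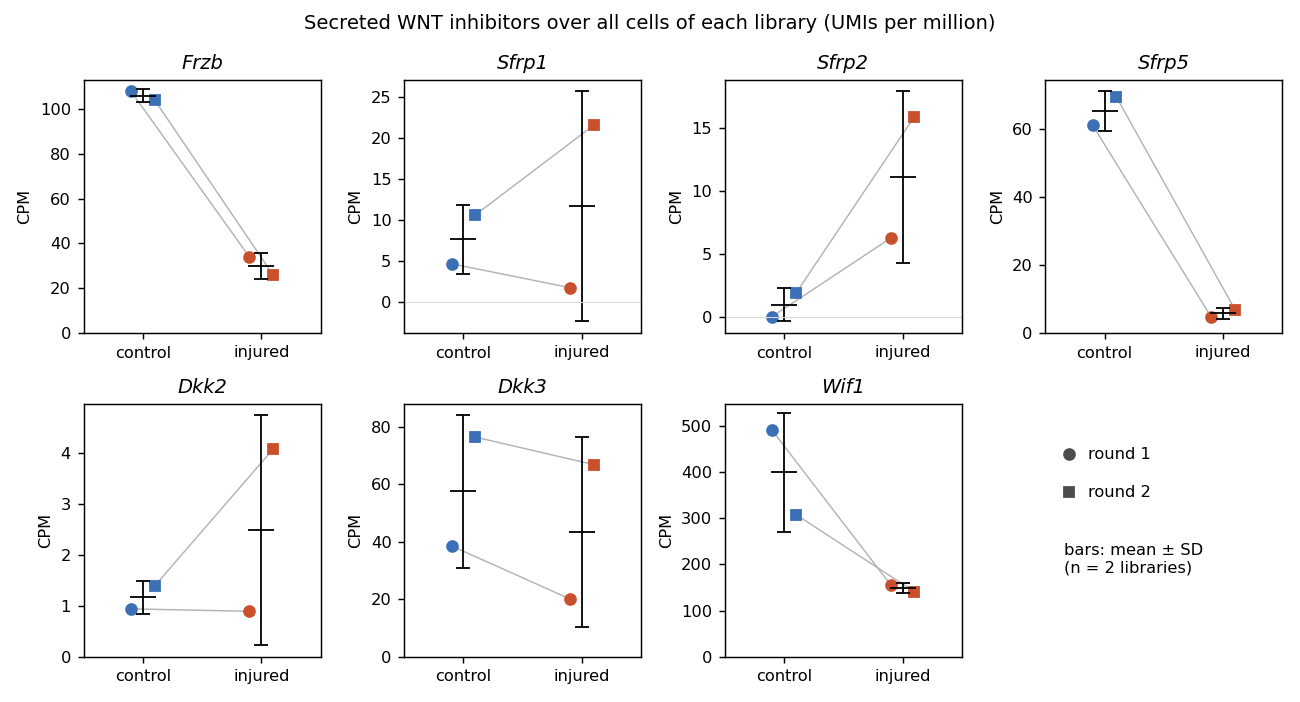
CPM over all cells of each library (y axes, linear) for control and injured discs, with circles for round 1, squares for round 2, grey lines joining the libraries of a round and bars for mean ± SD (n = 2). Sfrp5, Frzb and Wif1 are lower in both injured libraries, Sfrp2 is higher in both, and the groups overlap for Sfrp1, Dkk2 and Dkk3.

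Sfrp5 stood at 61.1 CPM in control round 1 and 69.4 in control round 2, against 4.61 and 6.82 in the injured libraries. Both injured libraries lay far below both controls, and the means were 65.2 CPM ± 5.89 and 5.71 ± 1.56 (SD, n = 2). Control was 13.3-fold (95% counting interval 8.52 to 21.0) above injured in round 1 and 10.2-fold (7.64 to 13.7) in round 2. The log2 fold change was -3.43 ± 0.407 (SE; edgeR adjusted p = 0.0477), and 4.83e-06 was the adjusted p with the block. Without the shared barcodes of round 1 the adjusted p was 0.0854 at -3.52, and with cells of at least 500 genes it was 0.0871 at -3.61.

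Frzb stood at 108 CPM in control round 1 and 104 in control round 2, and at 33.9 and 25.9 in the injured libraries. The groups did not overlap, with control 3.19-fold above injured in round 1 and 4.03-fold in round 2. The log2 fold change of -1.77 ± 0.346 (SE) did not pass without the block (edgeR adjusted p = 0.152) and passed with it (0.000515). By DESeq2 without the block the adjusted p was 0.0095.

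Wif1 had 491 and 308 CPM in the control libraries and 156 and 141 in the injured ones. Control exceeded injured 3.15-fold in round 1 and 2.19-fold in round 2, so the size differed between rounds while the groups did not overlap. The log2 fold change of -1.37 ± 0.388 (SE) had an edgeR adjusted p of 0.375 without the block and 0.0110 with it. With the block and without the shared barcodes, the adjusted p was 0.0585.

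Sfrp2, a frizzled-related protein of fibroblasts, had 0 and 1.85 CPM in the control libraries and 6.24 and 15.9 in the injured ones. No control cell of round 1 held a UMI, and the injured library of that round was at least 2.21-fold higher, against 3 counts in the control library. In round 2 the injured library was 8.60-fold higher (95% counting interval 3.30 to 31.9), from 4 control UMIs. The log2 fold change of 3.31 ± 0.963 (SE) had an edgeR adjusted p of 0.393 without the block and 0.00474 with it. Sfrp2 passed the filter on low counts through the injured libraries alone, so these p-values are no support for the difference. The UMIs sat in 60 cells, mostly inner annulus cells in injured round 1 (34 of 42 UMIs) and outer annulus cells in injured round 2 (164 of 168). The 4 control UMIs of round 2 lay in the Ccl11/Dpep1 cluster. Leaving out 1 library at a time gave log2 fold changes of 2.44 to 9.10, the last without control round 2, when no control UMI is left and the fitted value is no bound. The adjusted p was 0.0215 there and 0.0340 without injured round 1 (3.84).

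With all deposited barcodes, Sfrp1 went in opposite directions in the 2 rounds. It had 4.70 CPM in control and 1.78 in injured round 1, and 10.6 and 21.6 in round 2. The log2 fold change was 0.66 ± 1.05 (SE; edgeR adjusted p = 0.940, and 0.550 with the block), and it was -2.10 without the injured library of round 2. All 5 control UMIs of round 1 were in shared barcodes, and without these the count was 0. In injured round 1 the cells held 12 Sfrp1 UMIs and the barcodes under 250 genes 50 (22.6 CPM), so most of that library's Sfrp1 lay outside the cells compared.

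Dkk2 had 0.940 and 1.39 CPM in control and 0.892 and 4.07 in injured libraries, from 1, 3, 6 and 43 UMIs. Its groups overlapped. Dkk3 had 38.5 and 76.3 CPM in control and 20.1 and 66.8 in injured libraries. It differed more between rounds than between groups, with a log2 fold change of -0.32 ± 0.618 (SE; edgeR adjusted p = 0.954, and 0.404 with the block). That value was 0.32 without injured round 1 and 0.25 without control round 2.

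Across all 11990 genes, 37% had control and injured CPM that did not overlap in either direction, against 4 of the 6 members tested. With 2 libraries a group, an exact permutation test of one value cannot go below 0.333.

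Cells with a UMI gave the same order for Sfrp5, Frzb and Wif1 once depth was equal. With each cell thinned to 1000 UMIs, which kept 196, 643, 397 and 1591 cells (control 1, injured 1, control 2 and injured 2), Sfrp5 was seen in 5.67% ± 0.323 of control and 0.730% ± 0.237 of injured cells (SD, n = 2). The thinned shares were 9.63% ± 0.559 and 3.20% ± 0.351 for Frzb, and 23.4% ± 2.35 and 10.6% ± 1.203 for Wif1. Unthinned, the shares were 8.15% and 1.498% for Sfrp5, 13.9% and 13.1% for Frzb, and 24.3% and 29.1% for Wif1, at the unequal depths given above.

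The second comparison was made within annulus classes. In inner annulus or cartilage-like cells (4 clusters), 13 of 10687 genes (0.122%) were called without the block and 925 (8.66%) with it. Sfrp5 fell there too, and Frzb and Wif1 were lower in both rounds. Different clusters held most of the class: the Grem1/Cnmd cluster had 97 of 207 and 211 of 257 control cells, the Bmp2/Mmp3 cluster 88 of the 207 control and 360 of 484 injured cells in round 1, and the Saa1/Chil1 cluster 628 of 1033 injured cells in round 2. The M1ap/Fmod cluster, whose class depended on the clustering, gave 303 of those 1033. Without the shared barcodes, the inner class of control round 1 held 112 cells, and its Grem1/Cnmd cluster still 97. Most of the 88 Bmp2/Mmp3 cells of control round 1 were therefore shared barcodes. Outer annulus markers within the class (18 of 18 detected) summed to 2276 to 3173 CPM in control and 7169 to 9178 in injured sums, and inner annulus markers (18 of 19) to 15119 to 19009 against 21180 to 23600. Osteoblast markers (6 of 7, Bglap2 at 0) summed to 58.1 to 1065 against 21.5 to 42.1, and B or plasma cell markers (4 of 8) to 3.82 to 6.999 against 1.75 to 2.69. Neutrophil markers (6 of 7, Cxcr2 at 0) summed to 1.53 to 12.6 against 16.1 to 20.05. Their part in the values was not tested.

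Sfrp5 had 89.6 and 112 CPM in the control inner annulus sums and 5.24 and 10.2 in the injured ones. The log2 fold change was -3.54 ± 0.482 (SE; edgeR adjusted p = 0.0468, and 8.5e-27 with the block). Frzb had 144 and 151 against 37.9 and 35.3 CPM (log2 fold change -1.88 ± 0.360 SE, edgeR adjusted p = 0.153, and 2.07e-09 with the block). With 1 library left out at a time, its log2 fold change was -1.89 to -1.84. For Wif1, the class means were 549.6 CPM ± 139 and 181 ± 6.74 (SD, n = 2), and the fitted difference on the log2 scale was -1.47 ± 0.408 (SE; edgeR adjusted p = 0.374, and 0.00034 with the block). Dkk3 had 26.5 CPM ± 5.79 in control and 28.1 ± 14.7 in injured sums (SD, n = 2). Groups of Sfrp5, Frzb and Wif1 did not overlap, and those of Dkk3 did, where 37.8% of all genes tested did not overlap. With the class drawn by finer clusters, with the 7 genes allowed in the clustering, or by a marker score per cell, the edgeR adjusted p of Sfrp5 was 0.130, 0.123 and 0.117 at log2 fold changes of -3.29, -3.19 and -3.10.

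In outer annulus or fibroblast-like cells, 61 of 5128 genes (1.19%) were called without the block and 537 (10.5%) with it. Frzb had 50.2 CPM ± 6.97 in control and 18.2 ± 12.4 in injured sums (SD, n = 2; log2 fold change -1.87 ± 0.597 SE; edgeR adjusted p = 0.168, and 0.00247 with the block). Wif1 had 237 ± 112 and 79.1 ± 9.93 (log2 fold change -1.66 ± 0.486 SE; edgeR adjusted p = 0.130, and 0.00189 with the block). Dkk3 had 222 ± 122 and 112 ± 32.9 (log2 fold change -1.04 ± 0.496 SE; edgeR adjusted p = 0.423, and 0.0791 with the block). All 3 members tested had groups that did not overlap, against 42.8% of the genes tested. For Dkk3 the lower control sum (135.7 CPM) and the higher injured sum (135.3 CPM) nearly met. Sfrp1 and Sfrp2 had no UMI in either control sum, of 39 and 60 cells, and 13.5 and 67.8 CPM (Sfrp1) and 21.5 and 49.9 CPM (Sfrp2) in the injured sums. The outer class also differed in makeup: its controls were mainly Myoc/Angptl7 cells (27 of 39 and 47 of 60) and its injured round 2 cells mainly Aspn/Cthrc1 cells (247 of 495). Without injured round 1, the edgeR adjusted p was 0.00745 for Frzb (log2 fold change -2.42) and 0.0370 for Wif1 (-1.71). The Frzb value was -0.98 (edgeR adjusted p = 0.866) without injured round 2, that of Wif1 -1.03 (0.696) without control round 1, and that of Dkk3 -0.33 (0.935) without control round 2. With the class drawn by marker score, which took 64 and 321 control cells, the log2 fold change of Wif1 was 0.28. It was -0.085 (edgeR adjusted p = 0.974) with the 7 genes allowed in the clustering and -0.99 (0.425) with finer clusters. The Frzb value was -1.66, -1.16 and -1.74 in these 3 settings (edgeR adjusted p = 0.493, 0.442 and 0.192). With the class by marker score, Sfrp1 was tested as well, and its log2 fold change was 0.33 ± 0.750 (SE; edgeR adjusted p = 0.956), so the absence of Sfrp1 from the control sums depends on which cells are counted in the class. Outer annulus markers in the class (18 of 18 detected) summed to 20753 to 24292 CPM in control and 30074 to 42477 in injured sums, macrophage or monocyte markers (12 of 13) to 20.03 to 22.6 against 51.4 to 91.5, and osteoblast markers (6 of 7) to 50.9 to 107.7 against 16.1 to 36.8. Nucleus pulposus markers (10 of 12, Noto and Shh at 0) summed to 328 to 424 against 507 to 675. Their part in the values was not tested.

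Whether the effect of injury differed between inner and outer annulus cells was tested as an interaction, where 14 of 9296 genes (0.151%) were called. None of the 6 members tested was called, and for Sfrp1, Sfrp2 and Sfrp5 sums of 0 in the outer class leave no usable value. The outer minus inner log2 difference was -1.21 ± 0.439 (SE) for Dkk3 (edgeR adjusted p = 0.521), -0.03 ± 0.508 for Frzb and -0.13 ± 0.374 for Wif1. With the 7 genes allowed in the clustering, the Wif1 difference was 1.96 (edgeR adjusted p = 0.0209) and that of Dkk3 -0.37. The Dkk3 difference was -0.36 with finer clusters and -0.26 with the class drawn by marker score.

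**Figure D3:**
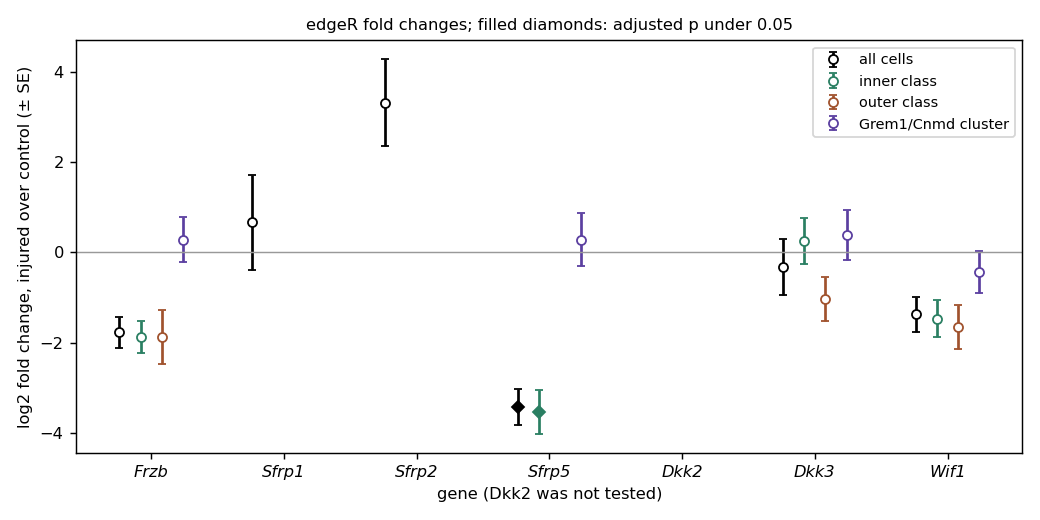
Log2 fold change of injured over control with its SE (y axis) for each gene (x axis) over all cells, inner and outer annulus classes and the Grem1/Cnmd cluster, by edgeR without the round as a block. Filled diamonds mark an adjusted p under 0.05, which Sfrp5 reached over all cells (-3.43) and in the inner class (-3.54), while the 4 values within the Grem1/Cnmd cluster lie between -0.44 and 0.38.

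The last comparison, added after the values of the clusters had been seen, stayed within the Grem1/Cnmd cluster, the main source of Sfrp5 and Frzb. None of its 5423 tested genes was called by edgeR (0%, with 99 at an unadjusted p under 0.05) or by DESeq2, and 40 (0.738%) were called with the block, none of them a member. Sfrp5 had 107 and 150 CPM in control and 76.8 and 219.7 in injured cells of the cluster, and its groups overlapped. Frzb had 159 and 192 CPM in control and 142 and 265 in injured cells, which overlapped as well. The log2 fold changes were 0.28 ± 0.591 (SE) for Sfrp5 and 0.28 ± 0.499 for Frzb (edgeR adjusted p = 0.999 for both). Wif1 had 761 and 574 CPM in control and 537 and 411 in injured cells, which did not overlap, as for 23.3% of the genes tested (log2 fold change -0.44 ± 0.464 SE). Dkk3 had 21.0 and 35.8 against 46.1 and 27.9 CPM (0.38 ± 0.552 SE). Both directions changed without the injured library of round 2, to -0.76 for Sfrp5 and -0.32 for Frzb.

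**Figure D4:**
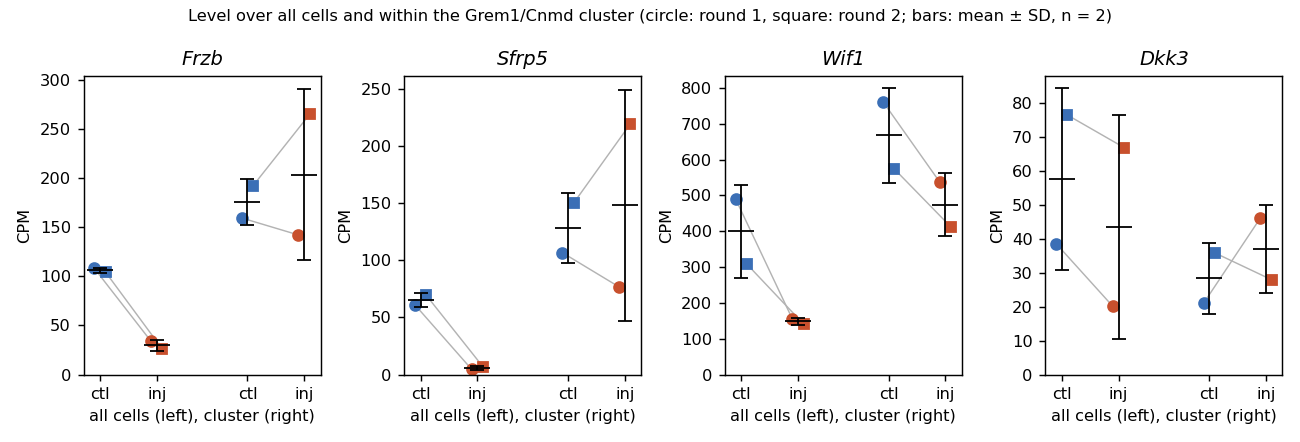
CPM (y axes, linear) over all cells and within the Grem1/Cnmd cluster, for control (blue) and injured (red) libraries, with circles for round 1, squares for round 2 and bars for mean ± SD (n = 2). Sfrp5 and Frzb are separated by group over all cells and overlap within the cluster.

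The cluster itself took different shares of the libraries. It held 97 of 378 control and 32 of 778 injured cells in round 1 (25.7% and 4.11%), and 211 of 856 and 78 of 1834 in round 2 (24.6% and 4.25%). None of its control round 1 cells was a shared barcode. When each cluster was held at 1 pooled level and only the libraries' makeup was allowed to differ, Sfrp5 gave log2 differences of -3.28 and -3.85 in rounds 1 and 2, against the measured -3.73 and -3.35. The pooled levels came from the same libraries, and some clusters were mostly of 1 library (628 of the 684 Saa1/Chil1 cells and 247 of the 267 Aspn/Cthrc1 cells were from injured round 2), so the 2 sets of values are not independent. The same figures were -1.62 and -2.08 against -1.67 and -2.01 for Frzb, and -1.28 and -1.30 against -1.65 and -1.13 for Wif1. A cell is placed in a cluster by its expression, so fewer cells of that kind and cells whose expression had moved away from it cannot be told apart. Inner annulus markers within the cluster (18 of 19 detected) summed to 12302 to 19197 CPM in control and 25828 to 29272 in injured cells. Keratinocyte or epithelial markers (6 of 8, Krt5 and Krt15 at 0) summed to 237 to 553 against 847 to 1385, Schwann cell or glia markers (6 of 7) to 166 to 255 against 349 to 422, and outer annulus markers (18 of 18) to 1849 to 2716 against 1297 to 1531. Of 6 osteoclast markers 1 was detected, at 57.3 to 80.5 against 11.5 to 34.9. Osteoblast markers (5 of 7, Bglap and Bglap2 at 0) overlapped between groups and differed widely between the controls. They summed to 1321 and 70.6 CPM in control rounds 1 and 2, and to 99.8 and 34.9 in injured rounds 1 and 2. Their part in the values above was not tested.

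In the Myoc/Angptl7 cluster Dkk3 had 151 and 334 CPM in control and 221 and 220.05 in injured cells, and Wif1 had 376 and 166 against 102 and 415. Both overlapped, on 16 to 67 cells per library. Frzb had 54.8 and 57.0 against 85.2 and 57.9 CPM. These groups did not overlap, nor did those of 28.7% of the genes tested, and the nearest control and injured values, 57.0 and 57.9, were nearly equal.

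The other genes of the pathway, in 6 lists by role with 84 genes, were read in the same fits. Over all cells 55 were tested and none was called without the block, with 19 positive and a median log2 fold change of -0.33 against -0.01 over all genes tested. With the block, 2 were called higher and 6 lower, where 6.28% of all genes tested were called (336 higher and 417 lower). With the block and without the shared barcodes of round 1, 3 of these 8 were called, where 2.04% of all genes were. Ligands were scarce: 6 of 19 were tested and none was called in either fit, led by Wnt9a (mean of 17.5 CPM), Wnt5b (9.31) and Wnt4 (7.498). Of 16 receptors and co-receptors 14 were tested and none called, led by Ryk (105 CPM), Lrp6 (70.4) and Fzd8 (41.5). Of the ligand release and R-spondin genes 6 of 11 were tested and none called, led by Wls (74.2 CPM), which carries WNT proteins to the cell surface, Lgr6 (72.3) and Lgr4 (59.2).

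Of 11 other inhibitors 6 were tested. Notum, an enzyme that removes the lipid from WNT proteins, had 15.03 and 18.5 CPM in control and 4.01 and 5.30 in injured libraries, and Tpbg (39.3 CPM over the 4 libraries) and Kremen1 (26.9) were more abundant. With the block, where 6.28% of all genes were called, 3 of the 6 were called lower: Notum (log2 fold change -1.77; edgeR adjusted p = 0.0134), Sfrp4 (-2.69; 0.0280) and Sostdc1, which had no UMI in either injured library. Without the shared barcodes the adjusted p in that fit was 0.0636 for Notum, 0.104 for Sfrp4 and 0.0203 for Sostdc1. Sfrp4 and Sostdc1 passed the filter on low counts through the control libraries alone, so their calls are no support for a difference. Sfrp4 had 10.3 and 4.63 CPM in control and 0.892 and 1.04 in injured libraries. Of its 38 UMIs, 20 lay in the Ccl11/Dpep1 cluster. Notum was also highest in the Grem1/Cnmd cluster, at 28.6 CPM. All 17 beta-catenin pathway genes were tested, led by Csnk1a1 (260.1 CPM), Ctnnb1 (194.5) and Gsk3b (152), and Tcf7l2, a nuclear partner of beta-catenin, was called lower with the block (-0.87; edgeR adjusted p = 0.0466, and 0.0823 without the shared barcodes).

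Of 10 target genes 6 were tested, and with the block they split. Ccn4 (log2 fold change 1.53; edgeR adjusted p = 0.0202) and Nkd2 (1.79; 0.00787) were called higher. Myc (-1.79; 0.000726) and Bambi (-1.11; 0.0198) were called lower. With the block and without the shared barcodes, the edgeR adjusted p was 0.101 for Ccn4, 0.0381 for Nkd2, 0.0187 for Myc and 0.0639 for Bambi. Ccnd1, the cyclin of early G1, had 68.6 and 35.2 CPM in control and 39.4 and 42.9 in injured libraries and was not called. The classical target Axin2 had 28 UMIs in all cells.

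Within the inner annulus class 50 of the 84 genes were tested and none was called without the block, with a median log2 fold change of -0.24 against -0.04 over all genes tested. With the block, where 8.66% of all genes were called, 2 were called higher, Ccn4 (1.07) and Nkd2 (2.05), and 5 lower: Lef1 (-1.83), Tcf7l2 (-0.83), Notum (-2.04), Fzd7 (-1.17) and Myc (-1.66). In the outer annulus class 23 were tested, with a median of -0.31 against -0.01, and Ccnd1 was called higher without the block (log2 fold change 3.31 ± 0.604 SE; edgeR adjusted p = 0.0347). With the block, where 10.5% of all genes were called, Ccn4 (3.91) joined Ccnd1, and 6 were called lower: Bambi (-1.90), Fzd8 (-2.05), Lrp5 (-1.99), Lgr4 (-1.70), Tcf7l2 (-1.25) and Myc (-1.68). The calls of these pathway genes with the block, in both classes, held without the shared barcodes. Dividing cells, which were all in the injured libraries, belonged to that class, and their part in the Ccnd1 value was not tested. Within the Grem1/Cnmd cluster 24 of the 84 were tested and none was called without the block.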

How the data were processed

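The deposited values are whole-number UMI counts per gene and barcode, which the authors obtained by running Cell Ranger against mm10, per the labels. Version 6.0.0 stands in the header of the control round 1 matrix and version 4 in the others, per the file headers. That control matrix listed 444 barcodes and the others 1194644 to 6794880. Barcodes of 250 or more detected genes, the series text's own minimum, were kept as cells. Clusters came from 2000 variable genes without the 7 members, 30 principal components and the Leiden method (leidenalg 0.10.2, resolution 1); 12 of 17 were named from 19 marker lists, and rebuilt names can differ from the authors'. No doublets were removed from the reported values; Scrublet called 12, 5, 1 and 2. Counts were summed per library and tested with edgeR 4.0.16 in R 4.3.3 (quasi-likelihood, two-sided, default filter, TMM, injury as the only term, Benjamini-Hochberg adjustment), a step checked on simulated data; DESeq2 1.42.0, the round as a block, filters, clusterings and left-out libraries were alternatives. Control and injured discs of a round came from the same mice, per the labels, and their deviations correlated (r = 0.508 over 11990 genes), so rounds pair the libraries. Shares have exact (Clopper-Pearson) and counts exact Poisson 95% intervals; limits for a count of 0 use 3 counts, and all cover counting error only. The members, lists and naming rule (all members; from the pathway lists every called gene and the 3 most abundant per role; the 3 genes most like each member) were chosen with earlier results of these data known.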

Additional observations from a re-analysis of the deposited data

Results flagged for a closer look

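The barcodes under 250 detected genes enter no comparison, and in round 2 the CPM there was higher in the injured library for 4 of the 7 genes. For 2 of them the counting interval lay above 1, as it did for 18.4% of the 10880 genes with UMIs in both libraries and at least 26 there, the lowest total of a member, and 56.0% of those genes were higher in the injured library. Sfrp1 had 5.56 CPM in control (43 UMIs) and 9.04 in injured (58 UMIs), a ratio of 1.63 (95% counting interval 1.08 to 2.47). Sfrp2 had 2.20 CPM (17 UMIs) and 4.83 (31 UMIs), a ratio of 2.20 (1.18 to 4.23). The other two were Dkk2, with a ratio of 1.93 (0.823 to 4.75), and Dkk3, with 1.08 (0.745 to 1.55). In the same barcodes Sfrp5 had 5.30 and 2.03 CPM (ratio 0.382, 0.188 to 0.727), Frzb 12.8 and 7.02 (0.548, 0.376 to 0.787) and Wif1 27.0 and 18.7 (0.692, 0.548 to 0.870). The intervals of these 3 lay below 1, as did those of 11.4% of the same genes. No such ratio can be given for round 1, where the control matrix left 50017 UMIs in such barcodes and no UMI of a member, while injured round 1 had 50 Sfrp1 UMIs in them (22.6 CPM) against 12 in its cells (1.78 CPM).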

How the results depend on the processing

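The direction of the fitted fold changes of Sfrp5, Frzb and Wif1 over all cells and in the inner annulus class, and of Sfrp2 over all cells, was the same under each alternative run. The share of cells with a Wif1 UMI turned with thinning: it was lower in injured cells at 1000 UMIs per cell (23.4% and 10.6%) and higher unthinned (24.3% and 29.1%). Calls depended on the fit. The count of called genes over all cells (14) was 753 with the replicate block, 242 with the block and without shared round 1 barcodes (added after seeing the data), 181 by DESeq2, 378 without the filter, 3 without shared barcodes, 0 at a minimum of 500 genes per cell and 30 at a UMI minimum equal to the lowest total listed in control round 1. In the inner class (13) the counts were 925 with the block, 1107 with the block and without shared barcodes, 97 by DESeq2, 197 without the filter, and 0 at resolution 2, with members among the variable genes and by marker score. In the outer class (61) they were 537, 540, 95 and 254 in the same order, then 98 without shared barcodes, 103 at resolution 2 and 25 by marker score. For the interaction (14) they were 257, 199, 30 and 141, then 34 without shared barcodes, 28 at 500 genes, 23 without doublets and 6 at resolution 2. Within the Grem1/Cnmd cluster (0) they were 40 with the block, 40 with the block and without shared barcodes, and 14 without the filter. Leaving out 1 library at a time, where the lone library is assumed to vary like the others, gave 126 to 273 calls over all cells, 8 to 214 in the inner class, 0 to 530 in the outer class, 44 to 302 for the interaction and 0 to 7 in the cluster.

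Some directions turned. Wif1 in the outer class, which passed with the block, was among them, and the turned Wif1 interaction passed with members among the variable genes. Leaving out 1 library at a time gave log2 fold changes of -2.10 to 1.53 for Sfrp1 over all cells, -1.49 to 0.32 for Dkk3 over all cells and -0.52 to 0.75 in the inner class, -0.58 to 0.92 for the Frzb and -0.32 to 0.13 for the Wif1 interaction, and, within the cluster, -0.32 to 0.70 for Frzb and -0.76 to 0.88 for Sfrp5. Dkk3 in the inner class was -0.63 at resolution 2, -0.76 with members among the variable genes and -0.21 by marker score. Wif1 in the outer class was 0.28 by marker score. The Frzb interaction was 0.0723 by DESeq2, 0.0536 at 500 genes, 0.0209 at the UMI minimum and 0.57 with members among the variable genes. The Wif1 interaction was 0.97 at resolution 2, 1.96 with members among the variable genes and 1.79 by marker score. The cause was not tested. Median depth of 836 to 1061.5 UMIs per control cell limits what can be seen of Sfrp2 and Dkk2.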

Other observations

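Sostdc1, a secreted antagonist of WNT and BMP signalling, had all 25 of its UMIs in the nucleus pulposus-like cluster. They came from the control libraries, 14 in round 1 and 11 in round 2, and the injured libraries had none. That cluster held 29 and 66 control cells and 5 and 1 injured cells, with a median of 46.0% mitochondrial UMIs. None of the 7 members had a UMI in it. Dkk1 and Sost, inhibitors best known from bone, had 3 UMIs and 1 UMI over all cells.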
